A study of Mus musculus with 2 samples.

Results

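*Malat1*, *Neat1*, *Kcnq1ot1*, *Gas5* and *Snhg1* are long noncoding RNAs, transcripts that are not translated into a known protein and that act in the nucleus or carry small nucleolar RNAs (snoRNAs) in their introns. They are 5 of the 21041 genes of the deposited table. They were chosen by symbol and partly on their measured values, since *Malat1* had the highest value in both libraries. The others were added as autosomal long noncoding RNAs with earlier results of these data known. Their values are therefore a description, and no test was run.

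The study asked what *Cxxc1*, which encodes a CpG-binding subunit of the Setd1 histone H3K4 methyltransferase complex, does in thymocyte development. RNA-seq was carried out on thymocytes positive for both CD4 and CD8 (DP thymocytes), with 2 libraries in all, 1 per genotype, here called WT and *Cxxc1*-deficient (deficient). WT mice were *Cxxc1* fl/fl, in which exons 4 and 5 are flanked by loxP sites, and the deficient mice of the study also carried h*CD2*-Cre, which removes these exons from an early thymocyte stage on and in other immune cells too. The label of the deficient library gives the genotype as *Cxxc1*+/- and that of the other as wild type, so the libraries were grouped by their titles. The floxed allele was made in cells of strain 129 and crossed onto C57BL/6, and the study used mice of 3 to 4 weeks unless it said otherwise. The number of mice behind a library and their sex are not given in the sources used here. Without a second library of either genotype there is no replicate spread, and every difference below compares these 2 libraries, not the genotypes.

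*Malat1* and *Neat1* are neighbouring nuclear RNAs. *Malat1* is among the most abundant polymerase II transcripts of many cell types and gathers in nuclear speckles, the bodies that store splicing factors, whereas *Neat1* is the scaffold around which paraspeckles form. *Kcnq1ot1* is transcribed antisense from within the imprinted *Kcnq1* gene, from the paternal allele, and silences neighbouring imprinted genes on that chromosome. *Gas5* and *Snhg1* work the other way round from most genes: their introns are processed into box C/D snoRNAs, which guide 2′-O-methylation of ribosomal RNA, while the spliced exons are exported and degraded by nonsense-mediated decay (NMD). Transcripts of both hosts start with a run of pyrimidines, as those of ribosomal protein genes do.

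The CXXC domain binds unmethylated CpG, so the promoters are shown with each CG in capitals. Each is 300 bases, from 250 before to 50 after the start site, read 5′ to 3′ on the strand of the gene. The sequences are those of RefSeq on GRCm38.p6. Each was found here by exact match at 1 place on its own chromosome, the only one searched, in NCBIM37 (mm9), the build of the deposited data. The match was chr19:5802623-5802922 on the minus strand for *Malat1*, chr7:150482403-150482702 on the minus strand for *Kcnq1ot1*, chr1:162965047-162965346 on the plus strand for *Gas5* and chr19:8797727-8798026 on the plus strand for *Snhg1*. Of the 5 genes, 4 had an entry, and *Neat1* did not.
*Malat1*: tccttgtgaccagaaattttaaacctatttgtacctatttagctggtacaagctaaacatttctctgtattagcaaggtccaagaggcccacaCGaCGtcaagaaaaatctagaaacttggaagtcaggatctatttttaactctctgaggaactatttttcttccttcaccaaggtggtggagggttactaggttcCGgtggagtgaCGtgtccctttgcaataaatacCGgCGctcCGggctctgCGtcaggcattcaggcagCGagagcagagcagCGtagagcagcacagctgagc
*Kcnq1ot1*: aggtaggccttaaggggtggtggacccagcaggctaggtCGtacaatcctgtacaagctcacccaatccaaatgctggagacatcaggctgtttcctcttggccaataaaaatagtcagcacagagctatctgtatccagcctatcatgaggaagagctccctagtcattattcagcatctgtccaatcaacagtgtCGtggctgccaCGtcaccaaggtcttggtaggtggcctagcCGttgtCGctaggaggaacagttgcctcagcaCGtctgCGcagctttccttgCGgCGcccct
*Gas5*: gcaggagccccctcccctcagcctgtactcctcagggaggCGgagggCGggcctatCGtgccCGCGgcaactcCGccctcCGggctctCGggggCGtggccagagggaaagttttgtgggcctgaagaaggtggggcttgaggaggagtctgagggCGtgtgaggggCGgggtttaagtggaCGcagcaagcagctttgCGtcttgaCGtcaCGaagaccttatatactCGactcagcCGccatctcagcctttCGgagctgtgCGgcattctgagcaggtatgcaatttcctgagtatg
*Snhg1*: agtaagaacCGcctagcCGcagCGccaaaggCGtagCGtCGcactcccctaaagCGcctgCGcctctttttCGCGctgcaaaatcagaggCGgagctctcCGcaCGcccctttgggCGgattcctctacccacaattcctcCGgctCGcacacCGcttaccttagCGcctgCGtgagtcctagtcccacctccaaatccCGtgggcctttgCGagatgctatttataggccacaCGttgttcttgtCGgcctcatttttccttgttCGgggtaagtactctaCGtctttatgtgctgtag

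The nuclear RNAs had fewer CG dinucleotides than the snoRNA hosts, with 10 for *Malat1* and 9 for *Kcnq1ot1* against 19 for *Gas5* and 25 for *Snhg1*. Of all 27025 promoters of the same length, 43.9% held at least 10, 46.2% at least 9, 28.4% at least 19 and 18.4% at least 25, and the median was 7. The longest run of C and T that began within 5 bases of the start site was 6 bases in *Gas5*, a length that 13.7% of promoters reached, and 9 bases in *Snhg1*, which 3.92% reached. It was 2 bases in *Malat1* and *Kcnq1ot1*, below the median of 3 bases. The run of *Snhg1* began just after the start site used here, past an A, and not at the start site itself. These are counts of letters, and neither binding by CXXC1 nor methylation of these promoters was analysed here.

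The snoRNAs are what sets *Gas5* and *Snhg1* apart, so a pair from each host is shown, with the box C letters TGATGA and the box D letters CTGA in capitals. Their positions and names are those of GENCODE vM1 and their letters those of NCBIM37, on the plus strand. SNORD44 lies at chr1:162966813-162966872 and Snord47 at chr1:162968213-162968289, both in introns of *Gas5*, and SNORD25 at chr19:8798486-8798550 and SNORD29 at chr19:8799582-8799646, both within *Snhg1*.
SNORD44: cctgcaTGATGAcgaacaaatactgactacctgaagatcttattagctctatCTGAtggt
Snord47: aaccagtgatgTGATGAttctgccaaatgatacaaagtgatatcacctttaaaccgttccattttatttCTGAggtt
SNORD25: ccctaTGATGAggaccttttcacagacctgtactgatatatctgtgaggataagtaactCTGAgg
SNORD29: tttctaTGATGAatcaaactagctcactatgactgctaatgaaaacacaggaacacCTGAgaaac

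*Gas5* (chr1:162964553-162968670, plus strand) held 9 annotated snoRNAs of the C/D kind, all in introns of its 12-exon transcript. *Snhg1* (chr19:8797986-8800932, plus strand) held 8, of which 2 lay in introns and 6 within exons of its annotated 4-exon transcript, a model in which those introns are kept. All 17 held CTGA near their end and 12 held TGATGA near their start, 7 of 9 in *Gas5* and 5 of 8 in *Snhg1*. SNORD28 of *Snhg1* held TGATGA further in and is not counted among the 12. The snoRNAs themselves are shorter than the transcripts counted here, and their levels were not analysed here. The value of a host gene counts its exonic reads in whatever gene model the authors used, which is not given in the sources used here.

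**Figure D1:**
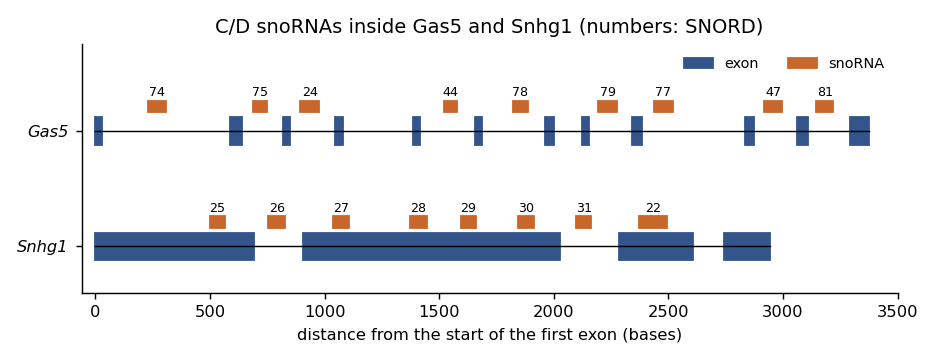
Maps of *Gas5* and *Snhg1* to scale, with the distance from the start of the first exon in bases on the horizontal axis, exons of the transcript with the most exons as blue boxes and C/D snoRNAs as orange boxes with their SNORD number. The 9 snoRNAs of *Gas5* lie between exons, whereas 6 of the 8 of *Snhg1* lie inside the long exons of its model.

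The deposited values are whole numbers, and those of short genes fell in steps set by transcript length, so they are read here as normalized per length. Their sum was 1551994 for WT and 981677 for the deficient library, and the median was 36 for each. At 1000 bases of transcript a single read was worth approximately 4.06 in WT and 4.70 in deficient cells, which puts approximately 1388800 and 715741 reads on the 18930 genes with a matched transcript. Error of a ratio is given as an approximate 95% Clopper-Pearson interval from these reads, and that of a single value as an approximate 95% Poisson interval. Both cover counting error only. For *Cxxc1* itself the WT value was 91 and the deficient value 50, giving a ratio of 0.549 (0.338 to 0.876). Reads were thus still counted for the gene in the deficient library, whereas quantitative PCR in the paper found hardly any *Cxxc1* mRNA in deficient DP cells. The deficient value of 50 lay within the span of olfactory receptor genes, which thymocytes do not use. Their median in that library was 24 and their 95th percentile 57. How much of the *Cxxc1* value is background was not tested. The deposited value is given per gene, so the deleted exons cannot be read apart from the others. The reason for the difference from the PCR was not tested. All 9 DP markers (among them *Rag1* and *Cd8a*) were above 0 in both libraries and lower in the deficient one. Their summed value was 38360 in WT and 10365 in deficient cells, a ratio of 0.270. Most of these markers had a mean of both values of at least 1000. At that level 97.4% of all genes were lower, with a median ratio of 0.284. Summed markers of B cells were 123 and 100, of macrophages and dendritic cells 216 and 207, of erythroid cells 104 and 129, with *Hba-a1* listed at 0 in both, and of thymic epithelium and stroma 175 and 166. Most single values behind these other sums were no higher than the 95th percentile of olfactory receptor genes. Of 15 Y-linked genes, 0 were above 0 in WT and 7 in deficient cells. The part of the lower DP markers and of the Y-linked genes in the values below was not tested. In bulk samples, fewer cells of a type and less RNA per cell cannot be told apart.

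Of the 5 long noncoding RNAs, 4 were lower in *Cxxc1*-deficient DP thymocytes, all by at least 2-fold, and *Kcnq1ot1* had the same value in both libraries. Over all 20125 genes above 0 in at least 1 library, 60.0% were lower and 17.4% were at least 2-fold lower. The latter share was larger at higher levels. It was 9.75% for genes whose mean of both values was under 50, 20% from 50 to under 100, 56.4% from 100 to under 1000, and 87.2% from 1000 upwards. Each RNA is therefore set beside the genes of its own level. The 4 lower RNAs stayed below a ratio of 1 under all 7 other scalings and pseudocounts, but only *Snhg1* stayed at least 2-fold lower when both libraries were scaled to an equal median of the genes whose mean reached 100.

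**Figure D2:**
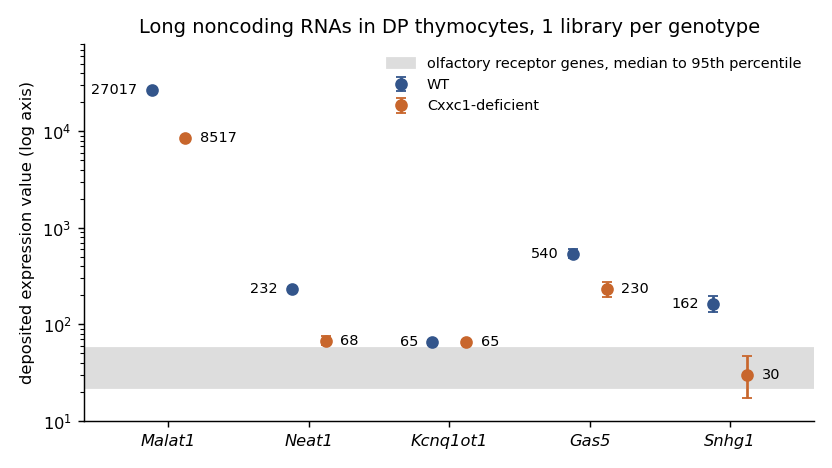
Deposited expression value on a log axis for each long noncoding RNA in the WT library (blue) and the *Cxxc1*-deficient library (orange), with approximate 95% counting intervals as bars and, in grey, the span from the lower median to the higher 95th percentile of olfactory receptor genes. *Malat1*, *Neat1*, *Gas5* and *Snhg1* are lower in deficient cells, *Kcnq1ot1* is at 65 in both, and *Snhg1* at 30 lies within the grey span.

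*Malat1* (chr19:5795690-5802671, minus strand) was 27017 in WT and 8517 in deficient cells. It was the highest value of all genes in each library and made up 1.74% of the sum of values in WT and 0.868% in deficient cells. The value was 3.17-fold lower in deficient cells (3.11 to 3.24 with approximately 46467 and 12643 reads at a length of 6982 bases, and 2.94 to 3.42 with the shortest annotated transcript). Its class holds the 39 genes whose mean reached 1000, and 38 of them were lower in deficient cells, with a median ratio of 0.284. *Malat1*, at 0.315, was close to that median, and 22 of the other 38 genes were as low or lower relative to WT.

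*Malat1* was ahead of the next gene by less than it differed between the libraries. In WT it was 1.30 times *Rag1*, the recombinase gene of T-cell receptor rearrangement, at 20778, which was 5058 in deficient cells, a 4.11-fold difference. In deficient cells it was 1.45 times *Rn45s*, the ribosomal RNA precursor, at 5883, which had been 8122 in WT (1.38-fold lower). The genes that followed in WT were *Satb1*, a genome organizer, with 6080 and 1492 (4.08-fold lower), *Tcf7*, the gene of the T-cell factor TCF1, with 5826 and 4461 (1.31-fold lower), and *Ptprc*, the gene of CD45, with 4239 and 1101 (3.85-fold lower). *Malat1* thus lay between the genes of this group that were lower by about as much as *Rag1* and those, *Tcf7* and *Rn45s*, that were lower by less. It held 12.8% of the summed value of the 100 genes of highest mean in WT and 11.6% in deficient cells. Leaving it out moved the ratio of the libraries' sums from 0.633 to 0.638.

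*Neat1* (chr19:5824708-5845478, minus strand), 22036 bases from *Malat1*, was 232 in WT and 68 in deficient cells. This was 3.41-fold lower (3.01 to 3.89 at the full length of 20771 bases, with approximately 1187 and 300 reads). With the shortest annotated transcript of 152 bases the same values would rest on 9 and 2 reads, and the interval of 0.804 to 36.9 then held 1. Which *Neat1* isoform the value stands for is not given in the sources used here. Of the 2432 other genes with a mean of 100 to under 1000, 286 (11.8%) were as low relative to WT, and the class had a median ratio of 0.473 against 0.293 for *Neat1*. The nearby pair thus had like ratios at levels that differed by 116 times in WT and 125 times in deficient cells.

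*Kcnq1ot1* was 65 in WT and 65 in deficient cells. At the RefSeq length of 83437 bases this rests on approximately 1336 and 1153 reads, and the ratio of 1.00 had an interval of 0.923 to 1.08. Because the gene is so long, this is the narrowest interval after that of *Malat1*, although the value is low. It covers counting error only and not background. The value of 65 lay just above the 95th percentile of olfactory receptor genes, 53 in WT and 57 in deficient cells. How much of it is background was not tested. In its class of 3657 genes with a mean of 50 to under 100, 82.6% were lower in deficient cells, with a median ratio of 0.691, and 634 of the other 3656 (17.3%) were as high relative to WT as *Kcnq1ot1*. The equal values depended on the scaling, and *Kcnq1ot1* was 1.31 to 2.0 times higher in deficient cells when the libraries were matched at the 75th percentile, the sum or the median of the genes whose mean reached 100. Its host gene *Kcnq1*, a potassium channel gene on the other strand, was 23 in WT and 18 in deficient cells (ratio 0.783, interval 0.356 to 1.82). The libraries do not keep strand, so reads of *Kcnq1ot1* and of unspliced *Kcnq1* cannot be told apart.

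*Airn*, another long antisense RNA of an imprinted gene, was 204 in WT and 207 in deficient cells, a ratio of 1.01. The interval was 0.977 to 1.05 at the RefSeq length of 118574 bases, and 0.714 to 1.47, with approximately 69 and 61 reads, at the 1375 bases of the longest GENCODE vM1 transcript. Of the 2433 genes with a mean of 100 to under 1000, 115 were higher in deficient cells and 3 equal. *Airn* lies across the start of *Igf2r* on the other strand, and *Igf2r*, the mannose 6-phosphate receptor gene, was 124 in WT and 53 in deficient cells, a ratio of 0.427 (0.336 to 0.540), and was named after its values were seen. As deposited, both long antisense RNAs thus had near-equal values in the libraries, whereas *Igf2r* was lower in deficient cells and the interval of *Kcnq1* held 1. Another scaling moves the ratios of *Airn* and *Kcnq1ot1* by the same factor. Of genes with a mean of 50 to under 100, as that of *Igf2r*, 82.6% were lower. Without strand, reads of *Airn* and *Igf2r* where the genes overlap cannot be told apart.

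*Gas5* was 540 in WT and 230 in deficient cells, 2.35-fold lower (1.91 to 2.91 with approximately 340 and 125 reads at 2556 bases, and 1.31 to 4.35 with the shortest annotated transcript). Its rank among all genes was 265 in WT and 253 in deficient cells. A ratio of 0.426 was near the class median of 0.473, and 941 of the other 2432 genes of that level (38.7%) were as low. *Zbtb37*, a zinc finger gene that overlaps *Gas5* by 428 bases on the other strand, was 72 and 38 (ratio 0.528, interval 0.342 to 0.828), and reads in the overlap cannot be told apart.

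*Snhg1* was 162 in WT and 30 in deficient cells. It was 5.40-fold lower, the largest difference of the 5, with an interval of 3.30 to 9.84 from approximately 109 and 17 reads at 2719 bases. Its rank moved from 1828 to 12971. Only 23 of the other 3656 genes with a mean of 50 to under 100 (0.629%) were as low relative to WT. This share depends on the class limit, since classes are cut on the mean of both values and that of *Snhg1* was 96. In the next class, of 100 to under 1000, the median ratio was 0.473 and 56.4% of genes were at least 2-fold lower. The level of *Snhg1* in deficient cells was no higher than that of genes that are silent here. Olfactory receptor genes, which thymocytes do not use, had a median of 22 in WT and 24 in deficient cells and a 95th percentile of 53 and 57, so that *Snhg1* at 30 lay among them. *Slc3a2*, whose start lies 126 bases from that of *Snhg1* on the other strand and which encodes a heavy chain of amino acid transporters, was 65 and 60 (ratio 0.923, interval 0.581 to 1.47).

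**Figure D3:**
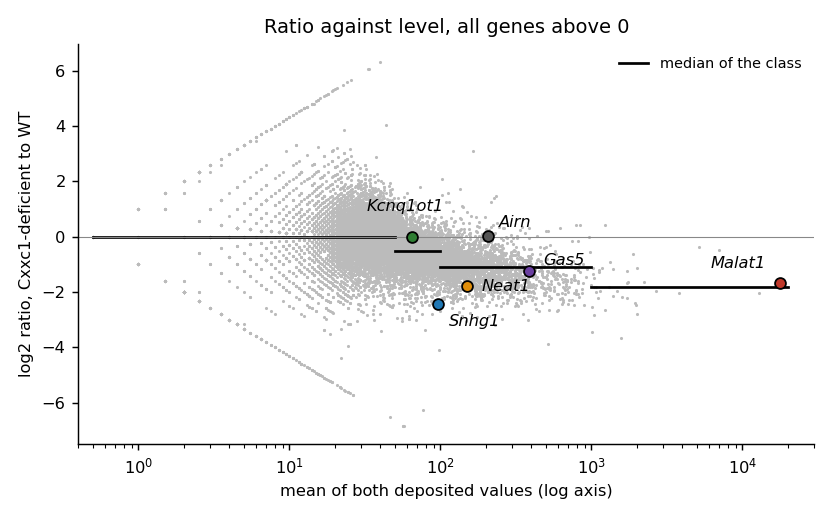
Log2 ratio of *Cxxc1*-deficient to WT against the mean of both deposited values (log axis), with 1 grey point for each gene above 0 in at least 1 library, coloured points for the 5 long noncoding RNAs and *Airn*, and black bars for the median of each class of level. *Malat1* and *Gas5* lie near the bars of their classes at -1.81 and -1.08, *Neat1* and *Snhg1* lie below theirs, and *Kcnq1ot1* and *Airn* lie at or near 0.

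Relative to the median log2 ratio of their class, *Malat1* differed by 0.15, *Gas5* by -0.15, *Neat1* by -0.69, *Snhg1* by -1.90 and *Kcnq1ot1* by 0.53. The offset of *Snhg1* depends on the class limit of 100, as its mean was 96 and the next class had a median of -1.08. The order of levels in WT was *Malat1*, *Gas5*, *Neat1*, *Snhg1* and *Kcnq1ot1*, and with the longest annotated transcripts no neighbours in it had counting intervals that overlapped. With the shortest transcript of *Neat1*, its interval of 110 to 456 in WT held the whole of that of *Snhg1* (134 to 196). Whether these 2 differ beyond counting error thus depends on the *Neat1* isoform. That interval of *Neat1* overlapped *Gas5* only where *Gas5* also took its shortest transcript (395 to 720, against 484 to 601 with the longest). In *Cxxc1*-deficient cells *Snhg1* moved to the end. *Neat1* at 68 (60.5 to 76.1) and *Kcnq1ot1* at 65 (61.3 to 68.9) then overlapped, although *Neat1* had been 3.57 times *Kcnq1ot1* in WT. The snoRNA hosts drew apart, and *Gas5* was 3.33 times *Snhg1* in WT and 7.67 times in deficient cells. The latter rests on approximately 17 reads of *Snhg1*, whose value of 30 lay within the span of olfactory receptor genes. With the shortest transcript of *Gas5*, the intervals of the KO to WT ratios of the hosts overlapped (0.230 to 0.761 and 0.102 to 0.303). Ratios of RNAs within a library do not depend on how the libraries are scaled, but they do depend on whether background is subtracted. Together the 5 RNAs summed to 28016 in WT and 8910 in deficient cells (ratio 0.318), and without *Malat1* to 999 and 393 (ratio 0.393).

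Other snoRNA-host RNAs of a mean of 50 or more were lower in deficient cells too, as were most genes of that level. Beside *Gas5* and *Snhg1*, 11 of the list were above 0 in the table, of which 8 were lower, 5 by at least 2-fold, and 3 higher, where 17.4% of all genes were at least 2-fold lower. Their median log2 ratio was -0.43, against -0.20 for all genes, and it was 0.13 and 0.57 under the scalings by the sum and by genes whose mean reached 100. Of the 6 with a mean of 50 or more, 6 were lower and 5 at least 2-fold lower, in classes where 82.6% and 95.2% of genes were lower and 20% and 56.4% at least 2-fold lower. *Snhg3* was 427 in WT and 75 in deficient cells, a 5.69-fold difference, close to that of *Snhg1*. *Snhg5* was 301 and 88 (3.42-fold lower) and *Snhg8* 227 and 78 (2.91-fold lower), both named after their values were seen. *Snhg6* was 100 and 12 (8.33-fold lower), and its value in deficient cells lay below the olfactory receptor median of 24, so the size of this fold rests on a value at background. *Snhg7* was 71 and 32 (2.22-fold lower), whereas *Snhg12* was 67 and 54 (1.24-fold lower). The 3 that were higher, *Snhg11*, *Snhg18* and *Dancr*, had values of 22 to 45 in both libraries, within the span of olfactory receptor genes, and were named after their values were seen.

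Most other long noncoding RNAs of the list had low values. Beside *Malat1*, *Neat1* and *Kcnq1ot1*, 20 were in the table, of which 17 had a mean under 50, where 47.8% of all genes were lower. Of the 20, 10 were lower, 8 higher and 2 equal, with a median log2 ratio of -0.03, which was 0.01 to 0.97 under the 4 other scalings. Of the 3 with a mean of 50 or more, *Tug1* was 454 and 248 (1.83-fold lower), *Dleu2*, named after its values were seen, was 60 and 44 (1.36-fold lower), and *Airn* had near-equal values. The 1 that was at least 2-fold lower was *Rpph1*, the RNA of ribonuclease P, with 75 in WT and 14 in deficient cells. A difference of 2-fold or more in the other direction was seen for 3, *Terc*, *Bach2os* and *Tmevpg1*, with means of 17, 29 and 40. These 4 were named after their values were seen, and no counting interval was made for them. *Rpph1* and *Terc* are short, at RefSeq lengths of 325 and 397 bases, so their values rest on few reads.

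Genes for the proteins of the nuclear bodies in which *Malat1* and *Neat1* sit were lower as well, and the medians of both lists were below 0 under every scaling. All 14 paraspeckle genes above 0 were lower in deficient cells, 12 of them by at least 2-fold, with a median log2 ratio of -1.77. *Sfpq*, which encodes a core paraspeckle protein, was 1390 in WT and 339 in deficient cells (4.1-fold lower), *Ewsr1* was 577 and 235 (2.46-fold lower), *Hnrnph3* was 228 and 48 (4.75-fold lower), and *Dazap1* was 88 and 43 (2.05-fold lower). *Smarca4*, a chromatin remodelling ATPase gene on the list, was 406 and 238 (1.71-fold lower). Of 16 nuclear speckle genes, 15 were lower and 10 at least 2-fold lower, with a median of -1.39. The splicing factor genes *Srsf1*, with 1235 and 252 (4.90-fold lower), and *Srsf5*, with 557 and 114 (4.89-fold lower), differed most. *Srrm2*, which encodes a structural protein of the speckle, was the exception at 672 and 898, 1.34 times higher in deficient cells, and its partner *Srrm1* was 284 and 201 (1.41-fold lower). A mean of 100 to under 1000, where 56.4% of all genes were at least 2-fold lower, was that of 11 of the 14 paraspeckle genes and of 14 of the 16 speckle genes.

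Genes that work on snoRNAs and on their spliced hosts had lower means of both values than the genes of the nuclear bodies, with medians of 38.2 and 93.0 against 144 for paraspeckle and 341 for speckle genes. Of 10 genes of snoRNA-binding proteins above 0, 9 were lower and 2 (20%) at least 2-fold lower, near the 17.4% of all genes, with a median log2 ratio of -0.59, which was 0.41 under the scaling by genes whose mean reached 100. Of these 10 genes, 7 had a mean under 50. *Nop58*, a core protein of C/D snoRNA particles, was 228 in WT and 121 in deficient cells, *Nop56*, its partner, was 83 and 74, and *Nolc1*, a nucleolar chaperone of the particles, was 60 and 45. Of 13 NMD factors, 12 were lower and 5 at least 2-fold lower, with a median of -0.93, which was 0.07 under the same scaling. All 5 were among the 10 with a mean of 50 or more, where 20% (50 to under 100) and 56.4% (100 to under 1000) of all genes were at least 2-fold lower. *Smg1*, the kinase of the pathway, was 325 and 173, *Magoh*, a subunit of the exon junction complex, was 281 and 68 (4.13-fold lower), and *Upf3a* was 119 and 34 (3.50-fold lower), while *Smg5* was 72 and 45 and *Smg8* was 97 and 89.

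**Figure D4:**
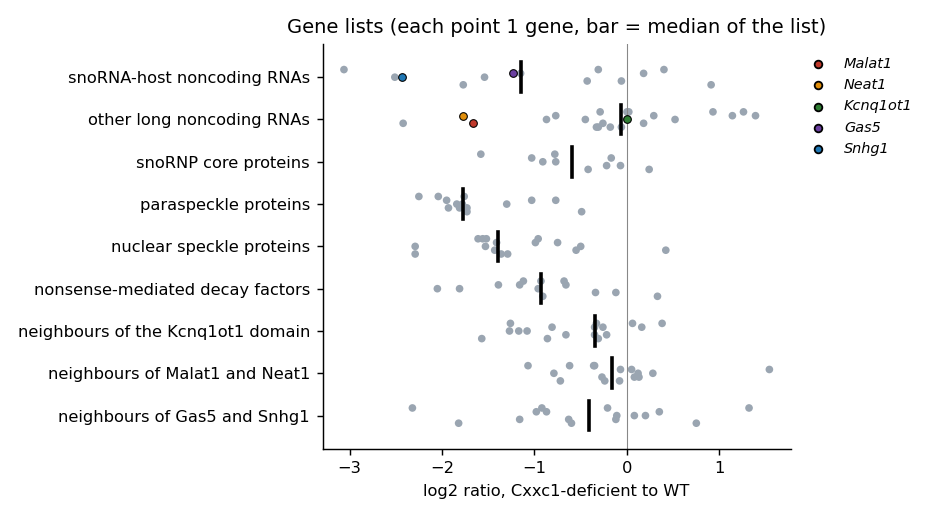
Log2 ratio of *Cxxc1*-deficient to WT on the horizontal axis for each gene above 0 of 9 lists (1 point per gene, shifted vertically within a list only so that points can be seen), with a black bar at the median of each list and the 5 long noncoding RNAs in colour. The medians run from -1.77 for paraspeckle proteins to -0.06 for other long noncoding RNAs.

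The coding genes beside these RNAs are given with the share of all genes of their level. Of 16 genes around *Malat1* and *Neat1*, 10 were lower, 6 higher and 1 at least 2-fold lower, with a median log2 ratio of -0.16, which was 0.22 to 0.83 when the libraries were matched at the 75th percentile, the sum or the median of genes whose mean reached 100 (the 3 upper scalings). Of these genes 8 had a mean under 50 and 8 from 50 to under 100, where 9.75% and 20% of all genes were at least 2-fold lower. The single gene was *Frmd8*, next to *Neat1*, with 128 in WT and 61 in deficient cells (ratio 0.477, interval 0.342 to 0.647). *Rela*, the NF-kappaB subunit gene, was 61 and 63, *Sipa1* was 66 and 72, and *Dpf2* was 83 and 48. Around *Gas5* and *Snhg1*, 11 of 16 were lower, 3 of them by at least 2-fold, with a median of -0.41, which was 0.15 and 0.59 under the scalings by the sum and by genes whose mean reached 100. These 3 of 16 are near the 17.4% of all genes. *Polr2g*, an RNA polymerase II subunit gene, was 135 and 27 (5.0-fold lower) and *Nxf1*, the mRNA export factor gene, was 272 and 77 (3.53-fold lower), whereas *Wdr74*, near *Snhg1*, was 54 and 35 and *Cenpl* 58 and 50. *Rc3h1*, which encodes the Roquin RNA-binding protein, was 216 and 118.

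In the imprinted region around *Kcnq1ot1*, 14 of 17 genes were lower, 5 of them by at least 2-fold, and 3 higher, with a median of -0.35, which was 0.03 to 0.64 under the 3 upper scalings and -1.58 with the olfactory receptor median subtracted. Over all genes 60.0% were lower and 17.4% at least 2-fold lower. Of the 17 genes, 12 had a mean under 50. The best expressed were *Cd81*, a tetraspanin gene, with 270 in WT and 112 in deficient cells (2.41-fold lower), and *Nap1l4*, a histone chaperone gene, with 184 and 62 (2.97-fold lower). *Tssc4* was 65 and 37. *Cdkn1c*, the cell cycle inhibitor gene that *Kcnq1ot1* silences on the paternal chromosome, was 57 and 36, near the upper end of the olfactory receptor genes in WT and within their span in deficient cells, and was named after its values were seen.

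**Figure D5:**
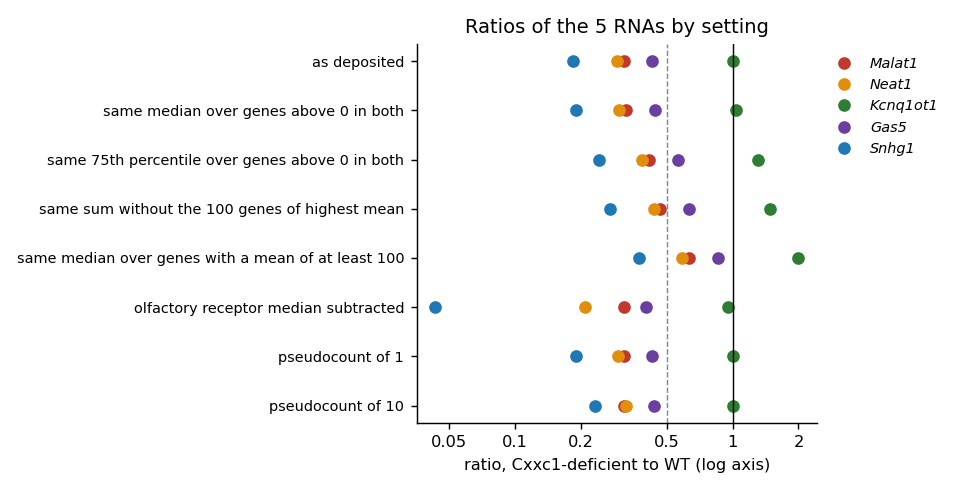
Ratio of *Cxxc1*-deficient to WT (log axis) of each of the 5 long noncoding RNAs as deposited and under 7 other settings, with a solid line at 1 and a dashed line at 0.5. *Malat1*, *Neat1*, *Gas5* and *Snhg1* stay left of 1 in every setting, at most 0.850 for *Gas5*, while *Kcnq1ot1* runs from 0.953 to 2.0.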

How the data were processed

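Total RNA of DP thymocytes was made into mRNA libraries that do not keep strand and sequenced as 50-base reads. How mRNA was selected is not given in the sources used here. The authors placed the reads on mm9 and analysed those that mapped uniquely in Partek. The submitters' processing notes name Bowtie 1.0.1 and CASAVA 1.8.2. The deposited values are scores, normalized for each gene and rounded to whole numbers by the authors. Their formula and gene annotation are not given in the sources used here.

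The 5 RNAs, the gene lists and the comparisons were chosen with earlier results of these data known. The genes named were *Cxxc1*, the 5 genes after *Malat1* by WT value, genes next to or overlapping a member and, of each list, the 2 genes of highest mean, the 2 lowest and the 2 highest ratios among means of at least 50 and any gene with a mean of at least 100 that was higher in *Cxxc1*-deficient cells. Other genes, apart from cell type markers, are said to be chosen after their values were seen. Some genes of this rule are not reported here.

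A ratio divides the deposited value of deficient cells by that of WT, after values under 1 were set to 1. Shares leave out genes at 0 in both libraries, and called means at least 2-fold lower. With 1 library per genotype no test was run and no p-value is given. The value of 1 read was estimated for each library as the constant that turned the most values of genes shorter than 600 bases with 1 transcript into 1 to 4 whole reads within 0.5 of the deposited value. It matched 114 of 197 such genes in WT (57.9%, against a median of 12 at other constants) and 97 of 200 in deficient cells (48.5%, against 13). The best of the constants more than 100 away matched 66 genes in WT and 59 in deficient cells. Reads, and the 95% intervals made from them (Clopper-Pearson for ratios, Poisson for single values), are approximate. They cover counting error only, and they depend on the transcript length (GENCODE vM1, or RefSeq for *Kcnq1ot1* and *Airn*). The ratio and interval steps were run on reads simulated with the same lengths and values of 1 read. Such a simulation cannot test the estimate of these values, the gene model, background or scaling.

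Alternatives were 4 other scalings of the libraries, a pseudocount of 1 or 10 added to both values, subtraction of the olfactory receptor median, thresholds of 1.5-fold and 3-fold, and lists limited to a mean of at least 20. Lists without the 5 RNAs and a second length of *Airn* were added after seeing the data. Scripts ran in Python 3.11.15 with pandas 2.3.3, scipy 1.17.1, numpy 2.4.6 and, for figures, matplotlib 3.10.9.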

Additional observations from a re-analysis of the deposited data

How the results depend on the processing

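No paired analysis was possible because neither genotype has a second library. Scaling moved every ratio by the same factor, since the deposited values of *Cxxc1*-deficient cells were multiplied by 1.03 to equalise the median of genes above 0, by 1.31 to equalise their 75th percentile, by 1.48 to equalise the sum left without the top 100 genes, and by 2.0 to equalise the median of genes whose mean reached 100. The median log2 ratio of all genes moved by 0.04, 0.39, 0.56 and 1.00. Under the last 3, in that order, the ratio was 0.412, 0.465 and 0.629 for *Malat1* (0.324 under the first), 0.383, 0.433 and 0.585 for *Neat1*, 0.557, 0.629 and 0.850 for *Gas5*, and 1.31, 1.48 and 2.0 for *Kcnq1ot1*, which was equal as deposited. *Snhg1* was 0.370 under the last. Subtracting the median of olfactory receptor genes gave 0.210 for *Neat1* and 0.0429 for *Snhg1*. The number of the 5 RNAs at least 2-fold lower was 1 in place of 4 under the last scaling. Of the ratios under all 7 alternatives, 19 moved by less than the counting interval, 16 moved by more and 0 changed direction from lower to higher.

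Medians of lists changed sign under the same 3 scalings, to 0.32, 0.50 and 0.93 for other long noncoding RNAs, to 0.03, 0.21 and 0.64 for genes around *Kcnq1ot1*, and to 0.22, 0.40 and 0.83 for genes around *Malat1* and *Neat1*. Genes around *Gas5* and *Snhg1* reached 0.15 and 0.59 under the last 2, and under the last alone snoRNA particle genes reached 0.41 and NMD factors 0.07. Without the 5 RNAs, a choice made after seeing the data, snoRNA-host RNAs reached 0.13 and 0.57 under the last 2, and other long noncoding RNAs 0.01, 0.36, 0.53 and 0.97 under the 4 scalings. For all snoRNA-host RNAs, paraspeckle and nuclear speckle genes the median was below 0 under every alternative. With the olfactory receptor median subtracted, genes around *Kcnq1ot1* had a median of -1.58. Among the 5 RNAs at the longest lengths used, depth limits *Snhg1* most, with approximately 17 reads in deficient cells.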
